A study of Mus musculus with 9 samples.

Results

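The loci described here are 3 imprinted regions of the mouse genome that normally carry methylation on the paternal chromosome, at H19, at Meg3 (the Dlk1-Meg3 region) and upstream of Rasgrf1. They were defined by position and were chosen with earlier results of these data known. The H19 window of the genome build mm9 holds the H19 control region and promoter (chr7:149761000-149770000). The Meg3 window holds the Dlk1-Meg3 intergenic region with the Meg3 promoter (chr12:110764000-110782000), and the Rasgrf1 window the region upstream of Rasgrf1 (chr9:89764000-89780000). The windows held 73 strand-specific CpG positions (59 CpG sites) covered by at least 10 reads in any table used, of 1813703 in all. Of these, 23 lay in the H19 window, 42 in the Meg3 window and 8 in the Rasgrf1 window.

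DNA methylation was read by reduced representation bisulfite sequencing, which cuts genomic DNA with MspI and so reads CpGs close to its cut sites. All 5 groups are Dnmt TKO embryonic stem cells of the mouse line J1 at passages 7 to 10. Such cells lack the DNA methyltransferases Dnmt1, Dnmt3a and Dnmt3b, and the labels give no promoter, clone or expression level for any construct. WWD and R (2 samples each) carried Dnmt3a2 constructs labelled WWD and R, from a study that, by its title, engineered the part of Dnmt3a that recognises histones; the labels do not give the changes. Of the rest, C (2 samples) had no construct in its labels, WT (2 samples) carried wild-type Dnmt3a2, and TKO was 1 sample without a construct. The labels name 1 table of methylation calls for both samples of WWD, of R, of C and of WT, and another for TKO, so each value below is that of 1 pool per group, taken to join both samples. No spread between replicates can be given, and each test compares the reads of 2 pools and not conditions.

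Imprinted genes are expressed mainly or only from the maternal or the paternal chromosome, and most imprints are set by DNA methylation in the egg. These loci belong to the few whose methylation is laid down in the male germline. At H19 the control region lies between H19, a long noncoding RNA made from the maternal chromosome, and Igf2, a growth factor made from the paternal one, and its unmethylated copy binds the insulator protein CTCF. Meg3 is a maternally expressed long noncoding RNA, and the region between it and Dlk1 controls the domain that reaches to Dio3, a thyroid hormone deiodinase. Rasgrf1, an exchange factor that activates Ras, is expressed in the mouse brain from the paternal chromosome, whose upstream region is methylated. Dnmt3a, whose ADD domain binds the tail of histone H3, sets imprint methylation in germ cells and Dnmt1 keeps it through cell division. Dnmt3a2 is the short isoform of Dnmt3a, abundant in germ cells and embryonic stem cells.

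The promoter of the first of 2 Meg3 starts in RefSeq, called the Meg3 promoter here, is the place in the windows where the reads could be tied to a sequence, and it is shown because 6 covered positions fall on its CpGs. RefSeq gives it in the build GRCm38.p6 on the plus strand at chr12:109540746-109541045, 250 bases before to 50 after the start of the transcript. It is written with the CpGs read here in capitals (5 of 13).
Meg3 promoter: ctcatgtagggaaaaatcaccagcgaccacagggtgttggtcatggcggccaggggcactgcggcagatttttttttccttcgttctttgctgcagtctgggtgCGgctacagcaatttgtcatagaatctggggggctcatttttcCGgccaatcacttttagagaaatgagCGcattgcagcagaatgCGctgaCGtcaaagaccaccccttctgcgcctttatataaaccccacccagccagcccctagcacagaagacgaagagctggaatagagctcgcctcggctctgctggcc
It was placed at chr12:110778956-110779255 of mm9 by the spacing of its CpGs: every covered position there fell on a CpG of the right strand. That made 6 fitting positions, against 2 at the next best place in the window and 5 elsewhere on the chromosome. For Meg3 the search was kept to its window by a rule added after the data were seen. The Dio3 promoter was placed over its whole chromosome, by 27 fitting positions against 8 at the next best place. It then lies 738234 bases further on than the Meg3 promoter, the same distance as in the RefSeq table.

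The tables used held 133646344 to 210131898 read calls each, and the depth at single positions was uneven. Levels are given over the 56 of the 73 positions that every pool covered, 19 at H19, 31 at Meg3 and 6 at Rasgrf1. Their reads per position ranged from 13 to 290 in WWD (median 73.5), 13 to 299 in R (109.5), 22 to 182 in C (70.5), 12 to 204 in WT (112) and 10 to 187 in TKO (46). At 37 positions the TKO pool had at least 0.5 times the reads of the WT pool, which is called full depth here. The other 19 are called reduced depth and comprise 1 of 19 positions at H19, 14 of 31 at Meg3 and 4 of 6 at Rasgrf1. Genome-wide 72% of 1263118 nuclear positions common to the pools were at full depth. The positions just inside this limit were 149762174 and 149762179 in the H19 window, with a ratio of 0.517, and the one just outside it was 110779987 in the Meg3 window, with 0.448. Intervals and limits on reads cover counting error only, since copies made by PCR are counted as if each were a molecule. Sums over positions also count a read again at every CpG it covers, so intervals and limits on such sums may be too tight.

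**Figure D1:**
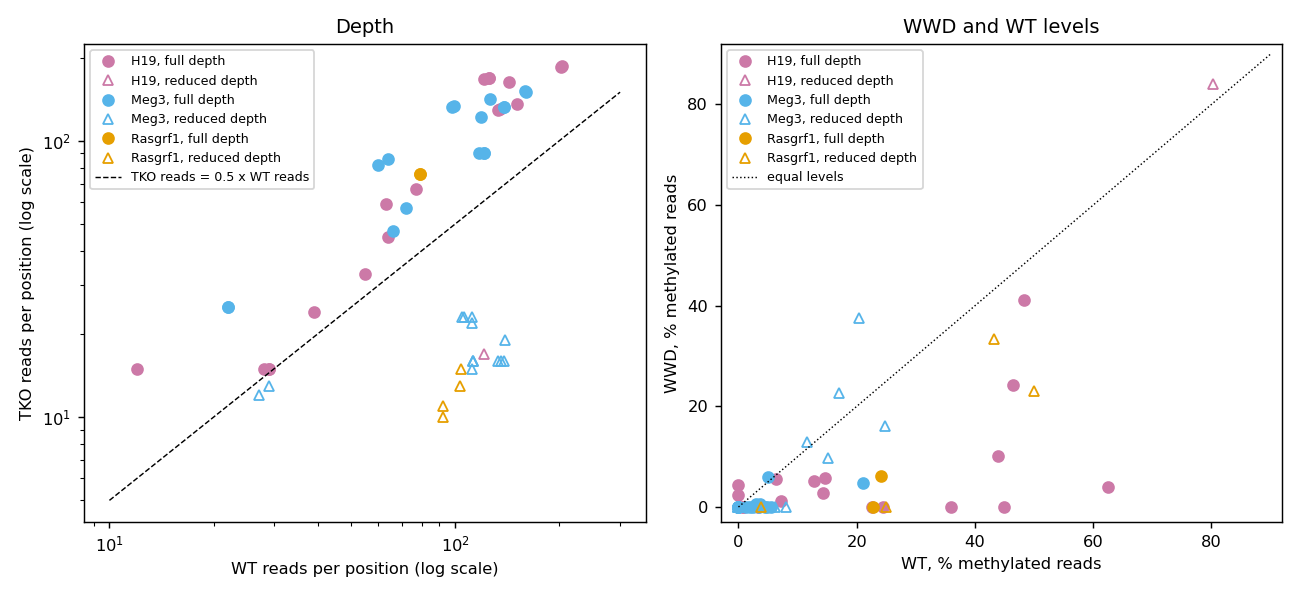
Reads per position in TKO against WT (left, log axes) and percent methylated in WWD against WT (right) at the 56 positions covered in all 5 pools; filled circles are full depth, open triangles reduced depth. Meg3 and Rasgrf1 positions make up 18 of the 19 reduced-depth ones, and the 84.1% of WWD at H19 is one of them.

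Wild-type Dnmt3a2 went with methylation in parts of the H19 window and at Rasgrf1, and with very little at Meg3. The reads were not assigned to a parental chromosome, so a partial level does not show methylation of a single parental copy. Averaged over common positions, WT held 24.7% at H19, 5.41% at Meg3 and 28.2% at Rasgrf1, against 0.236%, 1.49% and 1.67% in TKO. Summed reads, which weight positions by depth, gave 22.7%, 5.77% and 28.2% in WT. The Wilson 95% intervals of these pooled values were 20.8 to 24.6%, 5.01 to 6.63% and 24.6 to 32.1%. Over all nuclear positions WT averaged 14.7% and TKO 0.501%. Position by position, 7 of 19 were higher in WT than in TKO at H19, 0 of 31 at Meg3 and 2 of 6 at Rasgrf1, and none was lower (two-sided Fisher's exact test on reads; a call needs an adjusted p under 0.01, by Benjamini-Hochberg over 1288864 positions, and 25 percentage points or more between the pools). Of all positions tested, 22.5% were higher and 0.064% lower in WT. Without adjustment, 14, 3 and 4 positions had a p under 0.05. At Meg3 the highest WT level of the 31 was 24.8%, so no position there could be called higher in WT. Of the 9 positions called, 6 were at full depth, and these lay in the H19 window. Positions close together are read by the same molecules, so their tests are not independent.

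**Figure D2:**
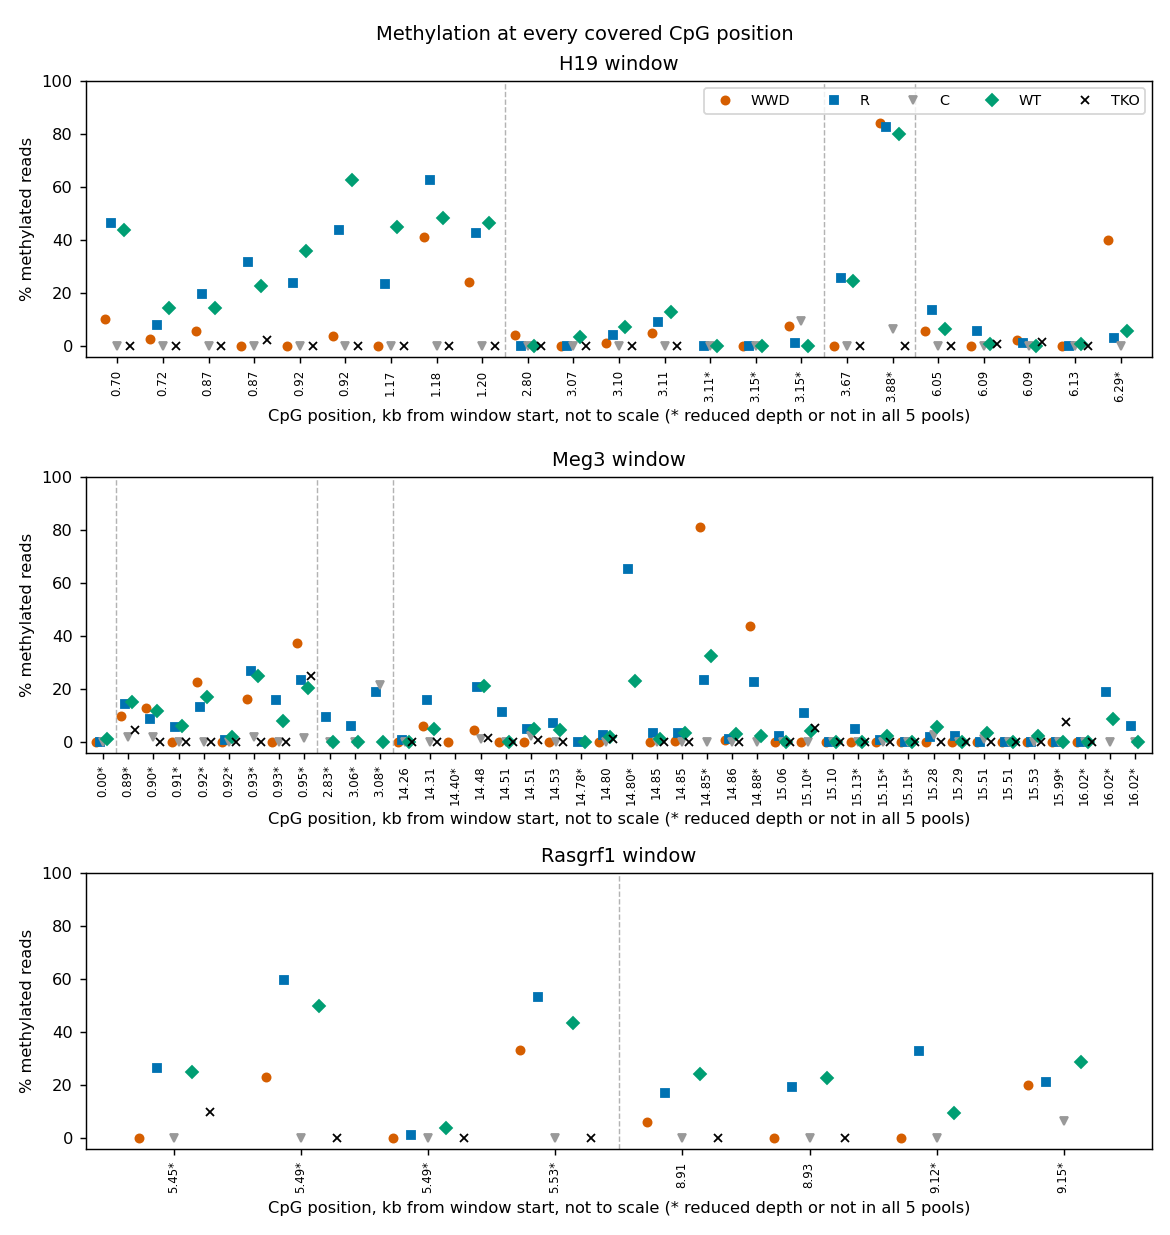
Percent of methylated reads (y axis) at each of the 73 covered positions in genome order, evenly spaced and labelled by distance from the window start, for the 5 pools; dashed lines part the stretches of positions more than 500 bp apart. C and TKO lie at or near 0 at most positions. At H19, R lies above WT at 9 and below it at 9 of the 19 common positions.

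In the H19 window the covered positions formed 4 stretches, and WT methylation was concentrated in the stretches numbered 1 and 3. H19 is read from the reverse strand, so higher coordinates lie on the upstream side, towards Igf2. The first stretch (149761700 to 149762197, 9 positions, full depth throughout) held 9.78% in WWD, 33.6% in R, 0% in C, 37.0% in WT and 0.246% in TKO. The second stretch (149763803 to 149764148, 4 common positions) held 2.69% in WWD, 3.40% in R, 0% in C, 5.83% in WT and 0% in TKO. The fourth stretch, farthest upstream (149767047 to 149767292, 4 common positions) held 2.00% in WWD, 5.17% in R, 0% in C, 1.96% in WT and 0.568% in TKO. There the WT interval on summed reads was 0.676 to 3.17% (6 of 408 read calls). Among common positions, the lowest WT levels of the window, 0%, were in stretches 2 and 4, at 149763803 (12 reads) and 149767093 (77 reads). The borders of the H19 gene, promoter and control region within the window were not used here.

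WWD was lower than WT at 4 of 22 tested H19 positions, and these were in the first stretch. Of all 1511200 positions tested in that comparison, 13.4% were lower and 0.461% higher in WWD. At 149761700 methylation was 10.1% in WWD (278 reads), 46.3% in R (283), 0% in C (180), 43.8% in WT (203) and 0% in TKO (185). WWD fell there by 33.8 points relative to WT, with an adjusted p of 5.12e-16 by Fisher's exact test. At 149761918, on the reverse strand, the levels were 4% in WWD (50 reads), 44.0% in R (50), 0% in C (64), 62.5% in WT (64) and 0% in TKO (45). The difference of WWD from WT was -58.5 points (adjusted p = 2.03e-10, Fisher's exact test), and 62.5% was the highest WT level at full depth in the 3 windows. The forward position of the same CpG, 149761917, held 0% in WWD (33 reads), 23.8% in R, 0% in C, 35.9% in WT (39 reads) and 0% in TKO, and was also called lower in WWD.

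The last 3 CpGs of this stretch had unlike levels in WWD and in R, and like levels in WT. At 149762174 WWD held 0% of 35 reads, R 23.3% of 43, C 0% of 23, WT 44.8% of 29 and TKO 0% of 15. At 149762179 WWD held 41.2% of 34 reads, R 62.8% of 43, C 0% of 23, WT 48.3% of 29 and TKO 0% of 15. At 149762197 WWD held 24.2% of 33 reads, R 42.5% of 40, C 0% of 23, WT 46.4% of 28 and TKO 0% of 15. WWD was called lower than WT at the first, where a count of 0 in 35 reads allows up to 8.57%, and at neither of the others. The differences between these CpGs within WWD and within R were not tested.

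A position near the middle of the H19 window was highly methylated in WWD, R and WT. At 149764881, on the reverse strand, methylation was 84.1% in WWD (44 reads, Wilson interval 70.6 to 92.1), 82.7% in R (156 reads), 6.38% in C (47 reads), 80.2% in WT (121 reads, 72.2 to 86.3) and 0% in TKO (17 reads, allowing up to 17.6%). It was the highest level of each of WWD, R and WT in the 3 windows, and the H19 position at reduced depth. It was also the position called between WWD and TKO (adjusted p = 1.99e-08, Fisher's exact test), 1 of 56, where 5.21% of all positions tested were higher and 0.0011% lower in WWD. Without adjustment 6, 2 and 2 positions at H19, Meg3 and Rasgrf1 had a p under 0.05 in that comparison. Position 149764881 makes up stretch 3, of 209 bases, together with 149764673 on the forward strand. The position 149764673 was at full depth and held 0% in WWD (144 reads), 25.7% in R (187), 0% in C (120), 24.5% in WT (143) and 0% in TKO (163). There WWD minus WT was -24.5 points (adjusted p = 4.11e-11, Fisher's exact test), just short of the 25 points a call needs. Genome-wide, WWD reached 80% or more at 17 of 909143 full-depth positions (0.00187%) and at 7059 of the reduced-depth ones (1.99%). The part of depth in the level at 149764881 was not tested.

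At the upstream end, WWD was called higher than WT at 149767292, with 40% in WWD (15 reads), 3.12% in R (64), 0% in C (56) and 5.83% in WT (103). That position had no row in the TKO table and so is outside the levels above. Coverage under 10 reads keeps a position out of a table, and 17 of the 73 positions were missing from 1 or more pools, TKO being among them each time. The other H19 positions missing from TKO, 149764110, 149764145 and 149764148, held 0 to 7.69% in WWD where read, 0 to 1.10% in R, 0 to 9.52% in C and 0% in WT.

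**Figure D3:**
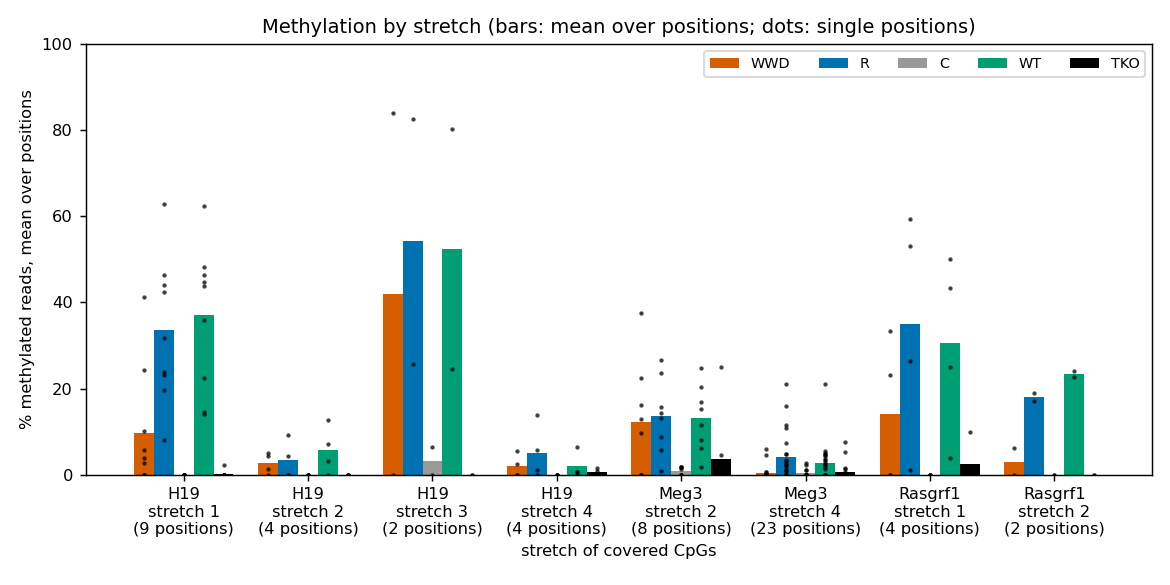
Mean percent of methylated reads (bars, from 0) in each stretch of covered CpGs that has positions in all 5 pools, with the single positions as dots. WT and R bars are high at H19 stretches 1 and 3 and at both Rasgrf1 stretches, and low at H19 stretch 4 and at the Meg3 stretch that holds its promoter.

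At the positions common to the pools, the Meg3 window was close to unmethylated around its promoter and partly methylated in a group of CpGs at its far upstream end. Over 31 common positions it averaged 3.57% in WWD, 6.59% in R, 0.447% in C, 5.41% in WT and 1.49% in TKO. The largest stretch, the fourth (110778263 to 110780023, 23 common positions, 17 at full depth) surrounds the Meg3 promoter and held 0.521% in WWD, 4.15% in R, 0.310% in C, 2.74% in WT and 0.723% in TKO. Within the promoter itself, 6 positions averaged 0% in WWD, 3.15% in R, 0% in C, 1.09% in WT and 0.877% in TKO. The highest of them lay 103 bases before the start, at 0% in WWD (26 reads), 10.9% in R (110), 0% in C (59), 4.32% in WT (139) and 5.26% in TKO (1 of 19 reads). None of these 6 was called in any of the 6 comparisons, and 1 had an unadjusted p under 0.05, between R and WT. With 10.9% as the highest level of any pool, none could reach the difference a call needs. The lack of calls in the promoter thus only restates its low levels. Of all positions tested, 13.4% were lower in WWD than in WT, 24.4% lower in C than in WT, and 22.5% higher in WT than in TKO.

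The highest WT level at full depth in this window was at 110778485, upstream of the Meg3 promoter. It held 4.69% in WWD (128 reads), 21.0% in R (124), 1.15% in C (87), 21.0% in WT (119) and 1.64% in TKO (122). R and WT are alike there and the other pools low. WT minus TKO was 19.4 points with an adjusted p of 2.88e-06, and WWD minus WT was -16.3 points with an adjusted p of 0.000516 (Fisher's exact tests). Both fall short of 25 points and were not called.

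The upstream group, stretch 2 (110764888 to 110764947, 8 positions, all at reduced depth) had like mean levels in WWD, R and WT, but not at each position. It held 12.3% in WWD, 13.6% in R, 0.840% in C, 13.1% in WT and 3.69% in TKO. The median reads per position were 28 in WWD, 112 in WT and 19 in TKO. Forward rows were higher than reverse rows of the same CpG: at 110764923 and its partner, WWD held 22.6% and 0%, R 13.2% and 0.82%, and WT 16.98% and 1.79%. The highest WT level of the common Meg3 positions was at 110764928, with 16.1% in WWD (31 reads), 26.7% in R (90), 1.75% in C (57), 24.8% in WT (105) and 0% in TKO (23). At 110764947, on the reverse strand, methylation was 37.5% in WWD (9 of 24 reads), 23.5% in R (119 reads), 1.43% in C (70 reads), 20.4% in WT (113 reads) and 25% in TKO (4 of 16 reads). That is the highest level of TKO in the 3 windows, and the means of the stretch include it. Over the 4 positions with 20 reads or more in every pool, which leave it out, means were 15.3% in WWD, 15.7% in R, 1.32% in C, 17.1% in WT and 1.14% in TKO. At the reverse rows 110764905, 110764924 and 110764929, WWD held 0% (25 reads each), R 5.79%, 0.82% and 15.7%, and WT 6.19%, 1.79% and 7.96%. Genome-wide TKO reached 25% or more at 15 full-depth and at 2994 reduced-depth positions (0.846% of all such positions). C minus TKO at this position was -23.6 points (adjusted p = 1, Fisher's exact test).

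Between WWD and WT, 2 of 34 Meg3 positions were called higher in WWD and 0 lower, where 0.461% and 13.4% of all positions tested were, and neither of the 2 had a row in TKO. At 110778854, methylation was 81.25% in WWD (13 of 16 reads), 23.3% in R (30 reads), 0% in C (17 reads) and 32.4% in WT (37 reads), with an adjusted p of 0.00954 for WWD against WT (Fisher's exact test). At 110778878 it was 43.75% in WWD (7 of 16 reads), 22.6% in R (31 reads), 0% in C (17 reads) and 2.44% in WT (41 reads). Both are forward rows close together with 16 reads each in WWD, so the 2 calls may rest on the same reads. The reverse row of the first of these CpGs, 110778855, was at full depth and held 0.64% in WWD (156 reads), 1.23% in R, 0% in C, 2.90% in WT (138 reads) and 0% in TKO. The 2 strands of that CpG thus had unlike levels in WWD, R and WT, and whether depth has a part in this was not tested. Of the other Meg3 positions missing from TKO, the highest level was 65.2% in R (23 reads) at 110778802, where WT held 23.1% (13 reads). Stretch 3 (110766835 to 110767080), with no row in WWD or TKO, held 6.25 to 18.75% in R, 0 to 21.4% in C and 0% in WT. The 21.4% of C was 3 of 14 reads.

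Methylation upstream of Rasgrf1 was partial in WT and R, at 0 in C at the common positions, and between these in WWD. Over 6 common positions it averaged 10.4% in WWD, 29.4% in R, 0% in C (0 of 387 read calls, which allows up to 0.775%), 28.2% in WT and 1.67% in TKO. The positions fall into a distal stretch (89769450 to 89769530, 4 positions, reduced depth) and a stretch nearer the gene (89772915 to 89773153, 2 common positions, full depth). At 89769488 the level was 23.1% in WWD (3 of 13 reads), 59.5% in R (111 reads), 0% in C (65), 50% in WT (92) and 0% in TKO (11). At 89769530 it was 33.3% in WWD (9 of 27 reads), 53.1% in R (96 reads), 0% in C (46), 43.3% in WT (104) and 0% in TKO (15). WT was called higher than TKO at both, with adjusted p of 0.00323 and 0.00166 (Fisher's exact test), and C was called lower than WT at both and at 89769450. At 89769450, WWD held 0% of 13 reads, R 26.4% of 110, C 0% of 63, WT 25% of 92 and TKO 10% of 10 reads, where 1 methylated read makes the highest TKO level of the window. The 2 strands of the CpG at 89769488 had unlike levels: its reverse row, 89769489, held 0% in WWD (28 reads), 1.05% in R, 0% in C, 3.88% in WT (103 reads) and 0% in TKO, the lowest WT level of the window.

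Full depth at Rasgrf1 was limited to a pair of CpGs, where WWD was lower in level than R and WT, and C and TKO were at 0. At 89772915 methylation was 6.12% in WWD (98 reads), 17.1% in R (82), 0% in C (81), 24.1% in WT (79) and 0% in TKO (76). At 89772934 it was 0% in WWD (109 reads), 19.1% in R (89), 0% in C (86), 22.8% in WT (79) and 0% in TKO (76). WWD minus WT was -17.9 points (adjusted p = 0.00427) and -22.8 points (adjusted p = 4.39e-07) by Fisher's exact test, under the 25-point threshold, so 0 of 8 Rasgrf1 positions were called between WWD and WT in either direction, where 13.4% of all positions were lower and 0.461% higher in WWD (2 of the 8 had an unadjusted p under 0.05). The reverse rows of this stretch, with no TKO row, held 0% and 20% in WWD (15 reads each), 32.7% and 21.1% in R, 0% and 6.45% in C, and 9.52% and 28.6% in WT.

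The R pool was not told apart from WT at any of 72 positions tested: 0 were called higher and 0 lower, where 0.235% and 0.0439% of all 1690346 positions were. Without adjustment 8 positions had a p under 0.05. The smallest adjusted p was 0.0927, at 89773115 in the Rasgrf1 window, where R held 32.7% (55 reads) and WT 9.52% (63 reads). R averaged 94.9% of the WT level at H19, 121.7% at Meg3 and 104.2% at Rasgrf1, and at full depth 93.2%, 139.6% and 77.2%, so that R was above WT at Rasgrf1 over common positions and below it at full depth. Over all common nuclear positions R averaged 104.8% of WT, and 100.7% at full depth. A difference under 25 points cannot be called at any depth, so the counts of calls do not show equal levels. C was lower than WT at 7 of 23 positions at H19, 0 of 39 at Meg3 and 3 of 8 at Rasgrf1, and higher at none, where 24.4% of all positions tested were lower and 0.000904% higher. Of those 10, 6 were at full depth, and at Meg3 9 had an unadjusted p under 0.05. At Meg3, WT reached 25% only at 110778854 (32.4%), so C could be called lower at no other position there. Between C and TKO 0 of 56 were called in either direction (0% and 0.0014% of all), and 1 had an unadjusted p under 0.05. The largest difference between C and TKO was -23.6 points, at 110764947, so no call was possible there or elsewhere. The comparisons share the WT or the TKO pool.

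WWD held 40.7% of the WT level at H19, 66.0% at Meg3 and 37.0% at Rasgrf1 over common positions. Over all common nuclear positions it held 42.2%. At full depth the shares were 27.5%, 21.2% and 13.1%, over 18, 17 and 2 positions, beside 25.7% over all full-depth nuclear positions. Full-depth levels were 5.93% in WWD and 21.6% in WT at H19, 0.705% and 3.32% at Meg3, and 3.06% and 23.4% at Rasgrf1. As a share of the gain of WT over TKO, WWD had 26.6% at H19, 15.8% at Meg3 and 13.1% at Rasgrf1, and 24.7% over all full-depth nuclear positions. WWD was below WT at 28 of the 37 full-depth positions and above it at 3, while 54.3% and 9.48% of all full-depth positions were so.

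Set beside autosomal 1 kb tiles with a like number of rows in the WT table, 9 of the 11 tiles of the windows lay below the median in WT: all 4 of Meg3, both of Rasgrf1 and 3 of the 5 of H19. Each tile with common positions was compared with tiles whose WT row count was within 10% of its own (4099 to 36251 tiles). In WWD 5 of 11 tiles were above the median of their like tiles, in R 2, in C 4, in WT 2 and in TKO 6. The like-tile medians were at most 0.248% in C and 0.175% in TKO, so a few methylated reads can put a tile above them. Averaged over a window, WT held 24.7% at H19 where like tiles averaged 31.3%, 5.41% at Meg3 where they averaged 23.8%, and 28.2% at Rasgrf1 where they averaged 32.5%. The H19 tile from 149767001 to 149768000 held 1.96% in WT, and 4.71% of 13469 like tiles were at or below it. The H19 tile from 149762001 to 149763000 was at 46.5%, with 74.3% of 26735 like tiles at or below. At Meg3 the tile with the promoter (110779001 to 110780000, 12 positions) held 1.50% in WT, with a like-tile median of 23.7% and 16.6% of 6429 tiles at or below. The tile before it (110778001 to 110779000) held 4.5%, with a median of 17% and 32.2% of tiles at or below. In WWD the promoter tile was at 0%, as were 4.53% of its like tiles. These ranks are a description and no test.

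**Figure D4:**
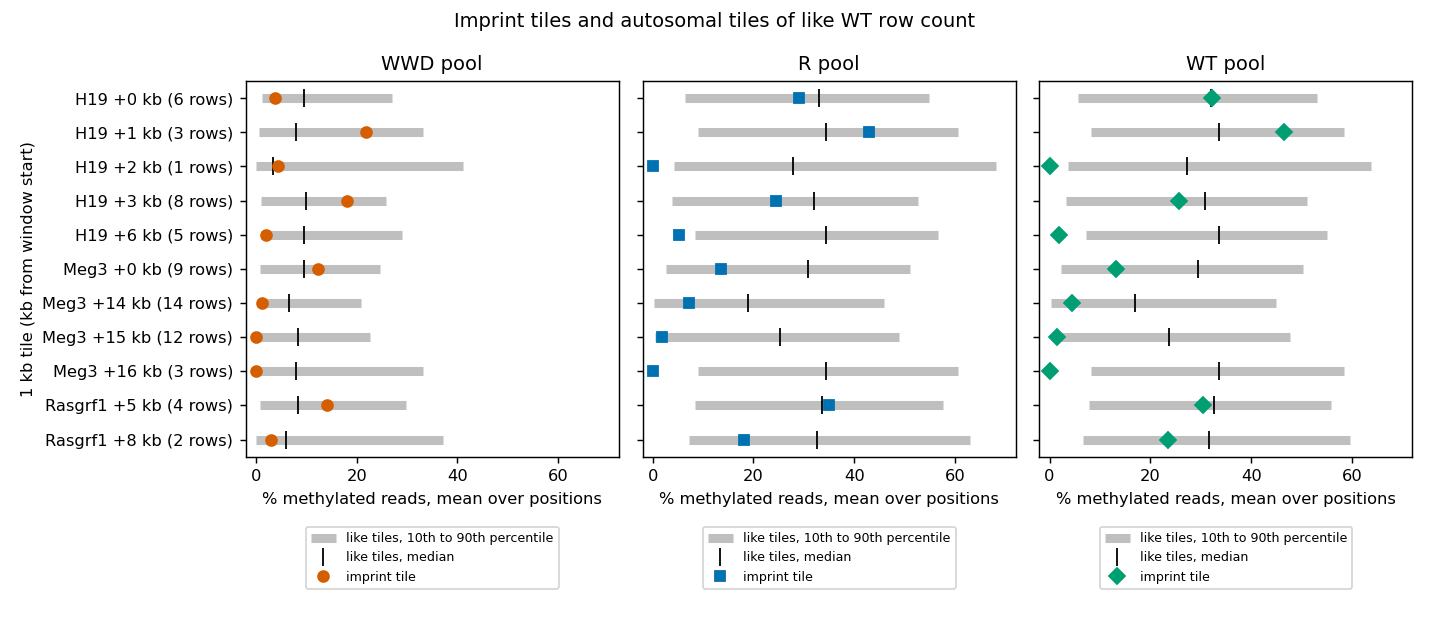
Mean percent of methylated reads in each of the 11 tiles (markers) and in the autosomal tiles of like WT row count (grey bars from the 10th to the 90th percentile, ticks at the median), for WWD, R and WT. In WT the Meg3 markers lie left of the like-tile medians, and those of H19 at 6 kb, H19 at 2 kb and Meg3 at 16 kb lie below the 10th percentile, the last 2 resting on a single position each.

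Among other genes of the same domains, promoters of Igf2 and Dio3 could be placed by their CpGs and were close to unmethylated. Both are expressed mainly from the paternal chromosome. An Igf2 promoter (chr7:149844660-149844959, 15 positions) held 0.279% in WWD, 0.425% in R, 0.200% in C, 0.323% in WT and 0.214% in TKO, with no position above 3.59% in any pool. The Dio3 promoter (chr12:111517190-111517489, 22 common positions) held 0.439% in WWD, 0.233% in R, 0% in C, 0.345% in WT and 0.309% in TKO. None of their positions was called in any of the 6 comparisons, and none could be. The highest level was 3.59% at Igf2 and 6.25% at Dio3, both in R, short of the difference a call needs. The lack of calls there thus only restates the low levels. Over all positions, the largest shares called were 24.4% lower in C than in WT and 22.5% higher in WT than in TKO. The next was 13.4% lower in WWD than in WT. At Dio3, 1 position had an unadjusted p under 0.05 in WT against TKO and 1 in C against TKO, and at Igf2 none had. Of the other listed promoters, those of Dlk1, Mirg, Rasgrf1, a second Meg3 start and the remaining Igf2 starts gave no place that could be used, and that of Rian has no CpG.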

How the data were processed

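The authors deposited, per the file headers, a coverage (count of reads) for each CpG position and strand, and beside it the percent of them that showed C or T. Bismark, methylKit and mm9 are named, without versions or order, in the submitters' processing notes. All tables but 1 of the 6 were used; no label ties the sixth to a sample, and its 3 columns of values were left out. The tables used start at 10 reads, as checked on the values. Methylated and unmethylated reads were taken as coverage multiplied by the percent of C and of T, rounded.

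Levels are means of the percent of C over positions covered in all 5 pools. Stretches are positions at most 500 bp apart. Each position covered in both pools was tested genome-wide, without the mitochondrial genome, with Fisher's exact test (two-sided). P-values were adjusted by Benjamini-Hochberg, and a call needed 25 points and an adjusted p under 0.01. The test was tried on simulated reads. Named are all windows, the stretches with positions in all 5 pools and some of the tiles. In each window the extreme positions of WT, WWD and TKO and up to 3 called positions per comparison are also named. The others named were chosen after their values were seen. The windows and lists were chosen with earlier results of these data known.

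No mm9 genome was used. Promoter sequences of RefSeq (GRCm38.p6), found for 7 of 10 listed genes, were slid along the covered positions of their chromosome, and a place needed 8 fitting positions and no covered position off a CpG. After the data were seen, 5 were allowed within a gene's own window, and a place was used elsewhere only where its fit was 1.5 times the next best, which left out Rasgrf1 (8 against 7). Alternatives were coverage of 20, each pool's own positions, pooled reads, full-depth positions, other thresholds and a 25% tolerance for like tiles. Python 3.11.15, numpy 2.4.6, pandas 2.3.3 and numba 0.67.0 were used.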

Additional observations from a re-analysis of the deposited data

How the results depend on the processing

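Counting calls at full-depth positions was chosen after seeing the data; the other alternatives were planned. The cause of each shift was not tested. No paired analysis was possible because each group has 1 table, and for the same reason no sample could be left out. At H19, WWD, R, C and WT held 5.93%, 20.1%, 0% and 21.6% at full-depth positions, and 2.64%, 16.7%, 0% and 17.8% with a coverage minimum of 20. There each pool's own positions gave 19.5% in R, 0.691% in C and 20.6% in WT, and pooled reads 5.66% in WWD and 22.7% in WT. At Meg3, full-depth positions gave 0.705% in WWD, 4.64% in R, 3.32% in WT and 0.216% in TKO. Own positions gave 6.74% in WWD, 9.14% in R and 0.905% in C, so that WWD was above the 5.75% of WT; pooled reads gave 1.62% in WWD and 0.620% in TKO, and a minimum of 20 gave 0.391% in TKO. At Rasgrf1, WWD, R, WT and TKO held 3.06%, 18.1%, 23.4% and 0% at full depth and with a minimum of 20, over 2 positions. Own positions gave 0.806% in C, and pooled reads 6.25% in WWD. The share of the WT gain seen in WWD was 26.6%, 15.8% and 13.1% at full depth at H19, Meg3 and Rasgrf1, against 40.1%, 53.1% and 33.04% over common positions.

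Called positions in the 3 windows together were 9 for WT vs TKO (16 at 10 points, 3 with coverage of 20) and 10 for C vs WT (20 at 10 points, 6 at full depth). For WWD vs WT they were 7 (3 higher, 4 lower), with 13 at 10 points, 4 at 40 points, and 4 with coverage of 20 and at full depth, where 0 were higher in WWD. WWD vs TKO had 1 call, with 2 at 10 points or at an adjusted p under 0.05, and 0 with coverage of 20 or at full depth. R vs WT and C vs TKO kept 0 calls in these settings. Tiles above the like-tile median were 1 in WT with a tolerance of 25%, 1 each in R and WT with own positions, and 2 in WWD, 2 in C and 3 in TKO of 8 tiles at full depth. Depth limits positions with few reads: the 40% of WWD at 149767292, from 15 reads, has a Wilson interval of 19.8 to 64.3%.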
